A study of Homo sapiens with 6 samples.

Results

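SOX genes encode transcription factors that bind DNA through a high mobility group (HMG) box, a domain that bends the double helix, and they are sorted into lettered groups by how alike those boxes are. Members of one group often share targets and can stand in for each other. In the intestine SOX9 marks crypt progenitors and Paneth cells and acts downstream of Wnt signaling, SOX4 is often abundant in carcinomas and is induced by TGF-beta, and SOX2, in pluripotent cells, binds DNA side by side with OCT4, the product of POU5F1. POU5F1B, the gene overexpressed here, is a retrogene copy of POU5F1.

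Transcripts of 10 SOX genes were followed, out of 63677 gene identifiers counted in each library. They are SOX2 (group B1), SOX4 and SOX12 (group C), SOX5, SOX6 and SOX13 (group D), SOX8 and SOX9 (group E) and SOX7 and SOX18 (group F), each matched through the symbol of its Ensembl identifier. The family was chosen by the SOX4 counts of these same libraries, where SOX4 differed between the groups when POU5F1B replicate 3 was left out. Its difference is therefore described and not tested, and the other 9 genes were added as relatives of SOX4, with earlier results of these data known.

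The cells were SW480, an established line from a human colorectal adenocarcinoma. Of the 6 libraries of polyadenylated RNA, 3 came from cells with a doxycycline-inducible vector for green fluorescent protein (GFP, the control) and 3 from cells with the same kind of vector for POU5F1B. The study's methods describe these vectors as lentiviral and the inserts as HA-tagged, with the POU5F1B insert amplified from DLD1 cells, another colorectal line, and with puromycin selection after transduction. Both groups had been kept in doxycycline at 1 µg/mL for 72 h, so doxycycline and transduction are shared and no uninduced or untransduced cells were compared. Whether replicates came from separate cultures was not stated, so the p-values measure the spread between these libraries, which may be technical.

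Libraries held 10767947 to 12787637 counts. Epithelial keratins matched the label of the line, with KRT8 at 35126 to 48850 and KRT18 at 37704 to 47655 counts per library, whereas CDX1 had at most 2 and KRT20 at most 19. Counts of POU5F1B itself were 6, 5 and 1 in the GFP libraries (replicates 1, 2 and 3) and 15027, 11393 and 1458 in the POU5F1B libraries, so replicate 3 of the overexpressing cells carried 9.22 times less of it than the mean of the other two. POU5F1, whose sequence is so close that reads may be shared, had at most 5 counts with GFP and 217, 159 and 18 with POU5F1B. GFP replicate 3 also stood apart, with a chi-square per degree of freedom of at least 78.7 against GFP replicates 1 and 2, where those 2 differed by 4.21. Both replicate 3 libraries touch most of the SOX values below, which are mostly given by replicate number. For SOX4, SOX12 and SOX13, fits that leave out 1 or both of these libraries are given as well. Replicate numbers were not taken to pair the samples, so a difference within a number is a description and not a matched comparison. In bulk RNA, fewer cells with a transcript and less of it in every cell cannot be told apart.

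The sequences directly upstream of SOX4 and SOX12 are shown because SOX4 is the gene the family was chosen by and SOX12 is its paralog in group C. Each run is 250 bases that end just before the RefSeq transcription start, read 5′ to 3′ on the plus strand and placed on GRCh37 by an exact match, at chr6:21593732-21593981 for SOX4 and at chr20:305946-306195 for SOX12. Capitals mark every match, on either strand, to CCAAT (the CCAAT box), GGGCGG (the GC box), ATGCAAAT (the octamer bound by POU factors), TATAAA (the TATA box), AACAAT (a SOX core) or AACAAAG (a core shared by SOX and TCF factors).
SOX4: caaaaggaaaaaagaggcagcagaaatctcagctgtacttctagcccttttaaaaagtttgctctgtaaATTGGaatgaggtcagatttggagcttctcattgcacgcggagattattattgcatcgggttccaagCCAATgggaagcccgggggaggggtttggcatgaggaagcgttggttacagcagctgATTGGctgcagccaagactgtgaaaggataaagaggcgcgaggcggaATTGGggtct
SOX12: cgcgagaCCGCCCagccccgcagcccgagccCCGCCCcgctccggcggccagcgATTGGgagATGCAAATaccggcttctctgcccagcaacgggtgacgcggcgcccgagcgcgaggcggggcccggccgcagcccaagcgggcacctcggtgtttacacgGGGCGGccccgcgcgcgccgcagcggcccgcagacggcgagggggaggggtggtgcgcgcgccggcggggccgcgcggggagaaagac

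The 2 windows differ in composition. That of SOX4 was 48.8% G or C with 8 CpG dinucleotides, that of SOX12 was 79.2% G or C with 42, and the median over all RefSeq promoters of this length was 58.0%. SOX4 held 4 CCAAT boxes and none of the other motifs, and a CCAAT box was present in 32.0% of all 35116 promoters. SOX12 held 1 CCAAT box, 3 GC boxes (present in 42.6% of promoters) and 1 octamer, which begins at position -188 relative to the transcription start. The octamer occurred in 1.63% of all promoters and in this 1 of the 10 windows found for 6 SOX genes (SOX2, SOX4, SOX5, SOX6, SOX12 and SOX13). AACAAT was in 8.98%, AACAAAG in 4.50% and TATAAA in 10.7% of all promoters. A match is a run of letters and not evidence of binding.

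The SOX genes spanned a wide range of levels, and only a few were abundant. Levels are given as CPM, the counts of a gene divided by a library size that was scaled by TMM and set to 1000000, and levels of different genes are compared as CPM per kilobase of annotated exon. On that per-kilobase scale, the GFP cells had SOX9 highest with 45.4 ± 4.69 (SD, n = 3 here and in the values that follow), then SOX4 with 29.2 ± 0.391, SOX13 with 7.62 ± 1.23 and SOX12 with 6.57 ± 0.984. The ranges of SOX9, SOX4 and the pair below them did not overlap, whereas those of SOX13 and SOX12 did. SOX2 followed with 0.950 ± 1.34, a mean set by 1 library, and SOX18 had 0.588 ± 0.0173. SOX7, SOX8, SOX6 and SOX5 were at or below 0.137 CPM per kilobase, and the order among them is not resolved at 0 to 20 counts per GFP library.

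In POU5F1B cells the order at the top changed because SOX4 dropped out of second place. SOX9 was again highest, with 45.8 ± 5.96 CPM per kilobase, followed by SOX13 with 8.12 ± 0.374, SOX4 with 7.06 ± 5.67 and SOX12 with 5.21 ± 1.24. The SOX4 values in these libraries ran from 3.51 to 13.6, so that SOX4 overlapped both of its neighbours in that order. The plot of levels by library shows the 10 genes side by side.

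**Figure D1:**
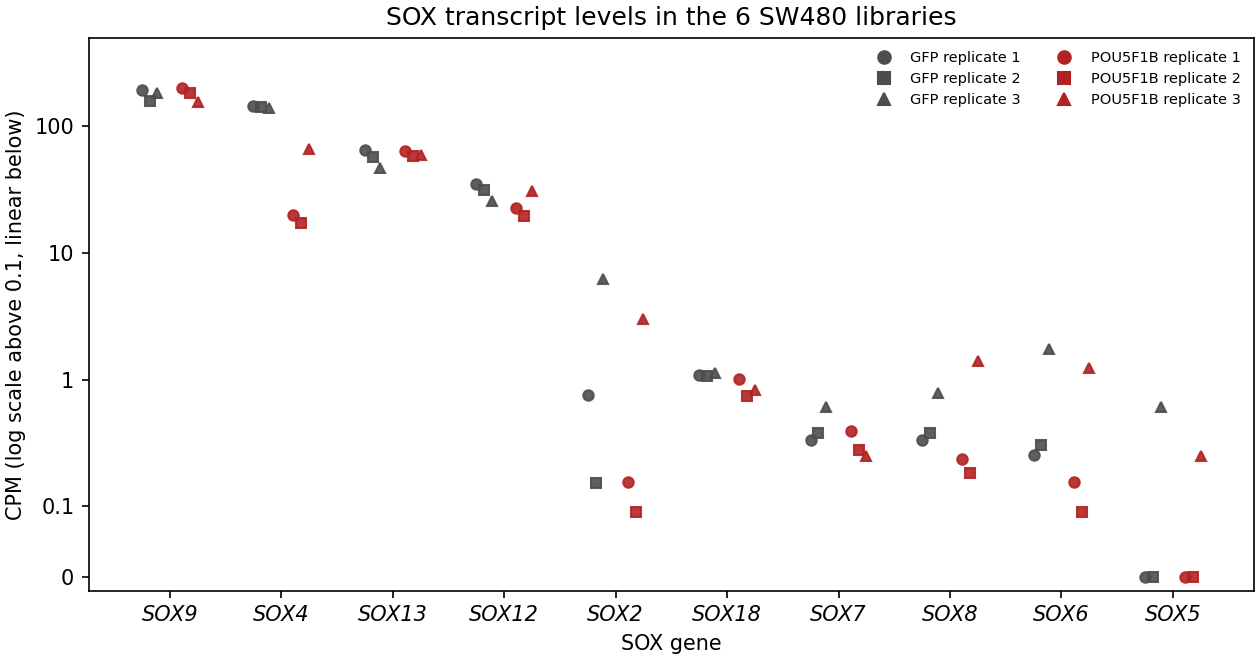
Level of each SOX gene (CPM, y axis, logarithmic above 0.1 and linear below) in the 6 libraries, with gray for GFP and red for POU5F1B cells and circles, squares and triangles for replicates 1, 2 and 3. SOX4 is set apart by group, from 17.1 to 66.2 CPM in POU5F1B and from 139.9 to 144 CPM in GFP libraries, while SOX2, SOX5, SOX6 and SOX8 are highest in the 2 replicate 3 libraries.

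SOX4 (ENSG00000124766), a group C factor and an effector of TGF-beta signaling in epithelial cells, is a single-exon gene on chromosome 6 at 21593982 to 21598850 (GRCh37, plus strand). A long noncoding RNA model on the opposite strand (ENSG00000283480) overlaps it and has no row in the counts used here. The SOX4 counts were 1708, 1878 and 1612 in replicates 1, 2 and 3 of GFP cells and 253, 185 and 797 in those of POU5F1B cells. In CPM these were 144, 143 and 139.9 against 19.9, 17.1 and 66.2. The groups did not overlap, the lowest GFP library being 2.11 times above the highest POU5F1B library.

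The coefficient of variation of SOX4 among the GFP libraries was 1.34%, and 0.553% of the 14286 genes tested had a lower one, even though GFP replicate 3 was the library farthest from the rest across all genes. SOX4 was chosen from these same libraries, so its rank is a description. Among POU5F1B libraries the coefficient was 80.2%, since replicate 3 had 3.58 times the mean of replicates 1 and 2. That library is also the one with the least POU5F1B transcript, as the plot of both genes by library shows. The part of the POU5F1B level in the SOX4 level was not tested.

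**Figure D2:**
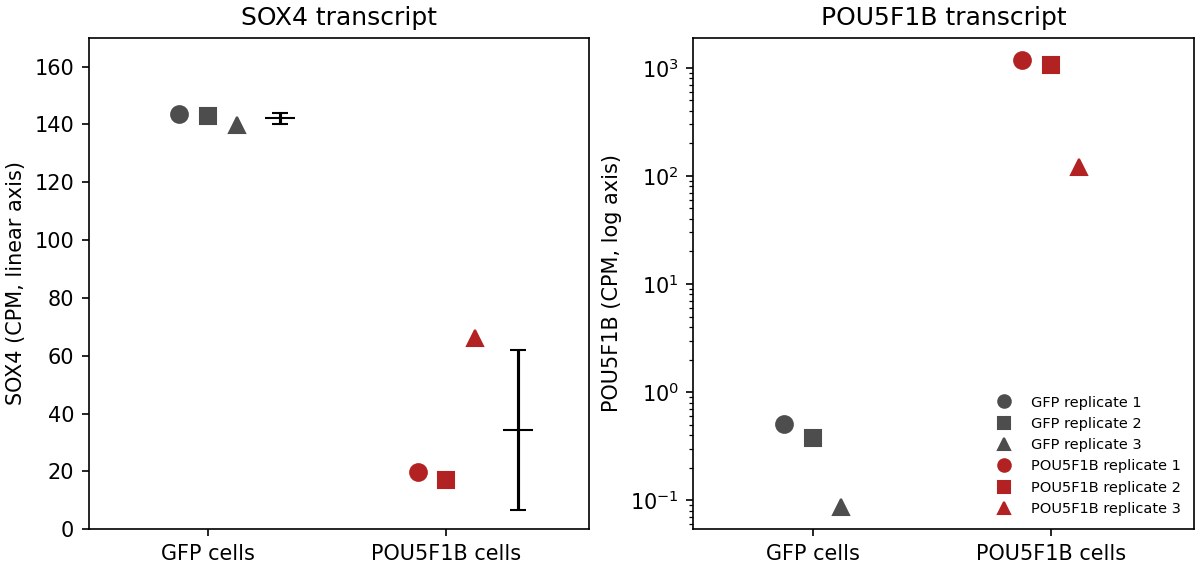
SOX4 (left, CPM on a linear axis from 0) and POU5F1B (right, CPM on a logarithmic axis) in each library, with circles, squares and triangles for replicates 1, 2 and 3 and, beside the SOX4 points, the mean and SD of the 3 libraries of a group. POU5F1B replicate 3 has the highest SOX4 (66.2 CPM) and the lowest POU5F1B (121 CPM) of its group.

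On the log2 scale of limma voom, SOX4 differed by -2.32 ± 0.43 (SE) between POU5F1B and GFP cells, which is a description of the libraries that led to its choice. Within replicate numbers 1, 2 and 3 the log2 differences were -2.84, -3.05 and -1.08. The difference was thus over 2-fold in each, as for 0.763% of all tested genes, and 0.644%, 0.378% and 9.31% of the genes lay lower than SOX4 within replicates 1, 2 and 3. With replicates 1 and 2 only the log2 fold change was -2.96. It was -2.93 without POU5F1B replicate 3 and -2.34 without GFP replicate 3. Among all tested genes, 9.24% were lower with POU5F1B without overlap between the groups and 10.2% were higher without overlap.

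For a collagen and the epithelial cadherin the groups did not overlap either, although neither passed the threshold (COL1A1 log2 fold change -3.22 ± 1.09 SE, adjusted p = 0.340 in limma voom; CDH1 1.71 ± 0.36 SE, adjusted p = 0.207). The summed level of 6 fibroblast markers ranged from 24.5 to 171 CPM in GFP and from 13.4 to 22.4 CPM in POU5F1B libraries, nearly all of it from COL1A1, a fibrillar collagen chain (1681, 1553 and 194 counts against 86, 60 and 114), and PDGFRB, a growth factor receptor. Of the 6 fibroblast markers 2 were tested and 0 passed, PDGFRB overlapped between the groups, COL3A1 had 0 counts in every library, and DCN and PDGFRA at most 3 and 4. CDH1, the epithelial cadherin, had 400, 396 and 836 counts in GFP and 2085, 1711 and 1181 in POU5F1B libraries. In GFP replicate 3 COL1A1 had 16.8 CPM against at least 118 in the other GFP libraries, and CDH1 had 72.6 CPM against at most 33.6, whereas SOX4 had 139.9 CPM against 143 and 144. The 9 epithelial markers summed to 6352 to 9559 CPM in GFP and 7891 to 8910 CPM in POU5F1B libraries, most of it from KRT8 and KRT18. Of the 8 epithelial markers tested, 6 were higher with POU5F1B and 2 lower (CDX2 and KRT20, log2 fold changes -0.32 and -0.31). CDH1 was the 1 of these 8 whose groups did not overlap, beside 19.4% of all tested genes. EPCAM had 86.6, 89.2 and 518 CPM in GFP and 320, 330 and 252 CPM in POU5F1B replicates 1, 2 and 3. The 5 leukocyte markers summed to less than 2 CPM in every library. The part of these genes in the SOX4 difference was not tested.

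SOX12 (ENSG00000177732; chromosome 20, 306196 to 310868, plus strand), the other group C factor detected, which binds the same core sequence as SOX4 and activates transcription more weakly, gave a smaller and less even difference. It had 34.9, 31.5 and 25.8 CPM in GFP and 22.7, 19.6 and 30.8 CPM in POU5F1B replicates 1, 2 and 3. The groups overlapped, because POU5F1B replicate 3 (30.8 CPM) lay above GFP replicate 3 (25.8 CPM). The log2 fold change was -0.35 ± 0.22 (SE; 95% interval -0.86 to 0.17; adjusted p = 0.571 in limma voom), a difference within the spread between replicates. The log2 differences were -0.62 and -0.68 within replicates 1 and 2 and 0.26 within replicate 3. With replicates 1 and 2 only, the log2 fold change of SOX12 was -0.65, still under the 2-fold limit. The limma voom adjusted p was 0.0040, beside 4238 of 14286 genes with an adjusted p under 0.05 in that fit. Both limits were passed by 8.36% of genes.

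The balance of the paralogs therefore differed between libraries. Per kilobase, SOX4 had 3.95, 4.35 and 5.21 times the level of SOX12 in GFP replicates 1, 2 and 3, and 0.840, 0.838 and 2.06 times in POU5F1B replicates 1, 2 and 3. The third group C gene, SOX11, had 0 counts in every library.

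In limma voom on the 6 libraries, an adjusted p under 0.05 with a fold change above 2 was reached by 0 of 14286 genes (0%). Before adjustment, 1698 genes (11.9% of those tested) had a p under 0.05. With edgeR (quasi-likelihood) 0 genes passed (0%) and with DESeq2 (Wald) 232 (1.62%). In limma voom the share was 7.54% with sample quality weights, 4.16% without GFP replicate 3 and 0.035% without POU5F1B replicate 3, and none of SOX9, SOX12, SOX13 and SOX18 was among these genes. Of the 10 SOX genes, 5 had enough counts to enter the fit. Besides SOX4, which is described only, these were SOX12 and SOX18, lower with POU5F1B, and SOX9 and SOX13, higher, and none of these 4 passed.

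**Figure D3:**
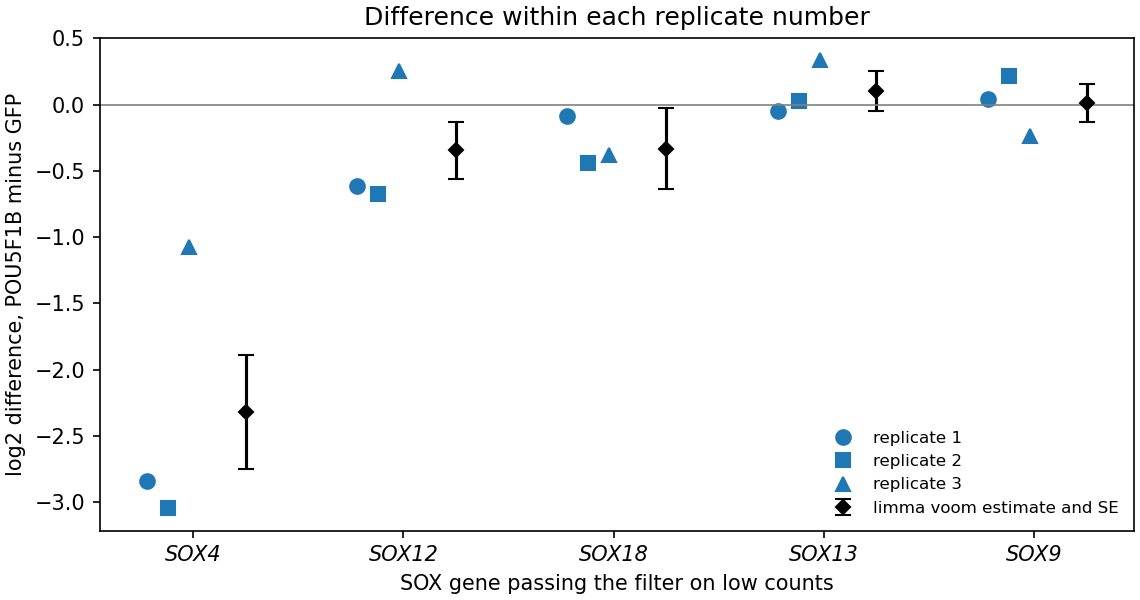
Log2 difference between POU5F1B and GFP cells (y axis) for the 5 SOX genes with enough counts for the fit, with blue circles, squares and triangles for the differences within replicates 1, 2 and 3, and black diamonds with bars for the limma voom estimate and its SE. SOX4 is below -1 in each of the 3 replicate numbers, SOX12 changes sign in replicate 3, and SOX9 and SOX13 lie within 0.34 of 0.

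SOX9 (ENSG00000125398; chromosome 17, 70117161 to 70122557), the group E factor of crypt progenitors, was the most abundant SOX transcript and was even across libraries. It had 195, 159 and 182 CPM in GFP replicates 1, 2 and 3 and 201, 184 and 155 CPM in POU5F1B replicates 1, 2 and 3. The groups covered nearly the same range. The log2 fold change was 0.01 ± 0.14 (SE; adjusted p = 0.984 in limma voom), and its 95% interval of -0.33 to 0.35 leaves out a difference as large as that of SOX4 in either direction.

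Beside the lower SOX4 values, SOX9 took a larger share of the reads counted for the 10 genes. SOX4 made up 32.5%, 36.4% and 34.4% of these reads in GFP replicates 1, 2 and 3 (the lowest and highest bounds of the 95% Wilson intervals being 31.3% and 37.7%). In POU5F1B replicates 1, 2 and 3 it made up 6.42% (5.70 to 7.23%), 6.10% (5.30 to 7.01%) and 20.8% (19.5 to 22.1%). SOX9 made up 40.5% to 44.9% of the reads in GFP libraries and 65.1%, 65.8% and 48.6% in POU5F1B replicates 1, 2 and 3. The summed level of the 10 genes was 392 to 442 CPM in GFP and 280.4 to 319 CPM in POU5F1B libraries. The SOX4 counts by which the family was chosen enter every share and the sum. These values therefore restate the SOX4 difference and are no separate result. The mean level of SOX9 itself was 179 CPM in GFP and 180 CPM in POU5F1B libraries.

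SOX8, the other group E gene of the set, known from the developing nervous system and testis, was near the limit of detection. It had 4, 5 and 9 counts in GFP and 3, 2 and 17 counts in POU5F1B replicates 1, 2 and 3, too few for a test. Its highest value, 1.41 CPM in POU5F1B replicate 3 (95% Poisson interval 0.823 to 2.26 CPM), overlapped the interval of GFP replicate 3 (0.357 to 1.48 CPM).

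Among group D genes, which lack an activation domain of their own and act with partner factors, SOX13 was the only abundant one. SOX13 (ENSG00000143842; chromosome 1, 204042243 to 204096871), a regulator of T cell lineages that can bind TCF factors, had 65.5, 56.9 and 47.2 CPM in GFP and 63.3, 57.9 and 59.6 CPM in POU5F1B libraries. The POU5F1B values lay inside the GFP range. The log2 fold change was 0.10 ± 0.15 (SE; 95% interval -0.25 to 0.46; adjusted p = 0.818 in limma voom).

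SOX6 and SOX5, partners in cartilage formation, were low and highest in the libraries numbered 3. SOX6 had 3, 4 and 20 counts in GFP and 2, 1 and 15 counts in POU5F1B replicates 1, 2 and 3. SOX5 had 0, 0 and 7 counts in GFP and 0, 0 and 3 in POU5F1B replicates 1, 2 and 3. For SOX5, the libraries at 0 allow up to 0.252, 0.228, 0.235 and 0.277 CPM (GFP replicates 1 and 2, POU5F1B replicates 1 and 2) at a limit of 3 counts. For SOX6, the 95% Poisson intervals were 1.06 to 2.68 CPM in GFP replicate 3 and 0.697 to 2.06 CPM in POU5F1B replicate 3, and the highest upper bound in the other 4 libraries was 0.779 CPM.

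SOX2 (ENSG00000181449; chromosome 3, 181429713 to 181432224), the group B1 partner of OCT4, showed the same split by replicate number at a higher level. It had 9, 2 and 72 counts in GFP and 2, 1 and 36 counts in POU5F1B replicates 1, 2 and 3. In CPM, GFP replicate 3 had 6.25 (95% Poisson interval 4.89 to 7.87) and POU5F1B replicate 3 had 2.99 (2.09 to 4.14), while the other 4 libraries had at most 0.757 (0.346 to 1.44). SOX2 was therefore detectable mainly in the 2 replicate 3 libraries, and the log2 difference between these 2 was -1.02. Their count intervals did not overlap, but such intervals cover counting error only. With 1 library per group, this gap in SOX2 has no replicate check. It did not pass the filter on low counts and was not tested.

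Of group F, which acts in blood and lymph vessel formation, both SOX18 and SOX7 were barely detected. SOX18 had 13, 14 and 13 counts in GFP and 13, 8 and 10 in POU5F1B libraries. Its CPM values did not overlap between the groups (1.06 to 1.13 against 0.740 to 1.02), but every Poisson interval overlapped the others, the highest lower bound being 0.601 and the lowest upper bound 1.46 CPM. Its log2 fold change was -0.33 ± 0.31 (SE; 95% interval -1.06 to 0.40; adjusted p = 0.698 in limma voom). SOX7 had 3 to 7 counts per library in both groups. In the annotation its exons overlap another gene model on the same strand (ENSG00000258724), which had 0 counts in every library.

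Most of the remaining family had few or no reads in this line. Of 9 other SOX genes compared, SOX3, SOX10, SOX11, SOX17 and SOX21 had 0 counts in all 6 libraries, which at a limit of 3 counts allows at most 0.277 CPM in a library. SOX15 had at most 1 count. SOX14, a group B2 gene, had 5 counts in GFP replicate 3, 3 in POU5F1B replicate 3 and 0 elsewhere.

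The remaining pair of these genes was tested. SOX1, a group B1 gene of neural progenitors, had 1.93, 3.12 and 1.56 CPM in GFP and 0.942, 1.39 and 1.25 CPM in POU5F1B libraries. Its groups did not overlap, with a log2 fold change of -0.84 ± 0.37 (SE; adjusted p = 0.435 in limma voom). The closest libraries were GFP replicate 3 with 18 counts and POU5F1B replicate 2 with 15. Among all tested genes, 19.4% did not overlap in either direction. SOX30, known from the testis, had 8 to 29 counts in GFP and 13 to 16 in POU5F1B libraries (log2 fold change -0.06 ± 0.45 SE; adjusted p = 0.973 in limma voom).

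Noncoding RNAs at SOX loci were too low to test. SOX9-AS1, antisense to the SOX9 region, had 12, 16 and 8 counts in GFP and 4, 3 and 7 in POU5F1B libraries, and its CPM values did not overlap between the groups (0.694 to 1.22 against 0.277 to 0.582). That gap rests on 8 against 7 counts, and 19.4% of all tested genes did not overlap in either direction. CASC15, which lies next to SOX4, had 39 counts in GFP replicate 3, 6 in POU5F1B replicate 3 and at most 1 elsewhere, and so followed SOX2 and not SOX4. SOX2-OT, the transcript that spans SOX2, had at most 3 counts and SOX21-AS1 at most 1. Because the strand setting of the counting was not stated, reads of overlapping genes on opposite strands cannot be told apart here.

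Within 1 Mb of SOX4, 14 other genes were counted, 12 of them with at most 1 count in every library, and CDKAL1, a tRNA-modifying enzyme gene, was the 1 with enough counts to be tested (chosen after its values were seen). CDKAL1 had 195, 208 and 237 counts in GFP and 196, 181 and 222 in POU5F1B libraries, which differed by -0.05 ± 0.18 on the log2 scale (SE; adjusted p = 0.939 in limma voom). The neighbour thus did not share the pattern of SOX4.

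Of 7 other HMG-box factors that bind DNA by sequence, 0 passed the threshold (beside 0% of all genes). Lower with POU5F1B were 5 (71.4%, beside 53.1% of all tested genes) and higher were 2, the median log2 fold change was -0.42 against -0.02 over all tested genes, and in 2 of the 7 the groups did not overlap (19.4% of all genes in either direction). LEF1, a nuclear partner of beta-catenin, had 92.6, 82.9 and 68.0 CPM in GFP and 51.7, 48.9 and 66.1 CPM in POU5F1B libraries (log2 fold change -0.55 ± 0.18 SE, adjusted p = 0.323 in limma voom). CIC, a repressor controlled by ERK signaling, had a log2 fold change of -0.42 ± 0.18 (SE; adjusted p = 0.427 in limma voom). Within replicates 1, 2 and 3 the log2 differences of LEF1 were -0.84, -0.76 and -0.04.

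Partners and modifiers of SOX proteins showed no common direction, with 6 of the 12 tested higher and 6 lower (0 past the threshold; median log2 fold change 0.00). CTNNB1, which encodes beta-catenin, was the 1 of these 12 whose groups did not overlap, beside 19.4% of all tested genes. It had 991, 946 and 1106 CPM in GFP and 1219, 1331 and 1310 CPM in POU5F1B replicates 1, 2 and 3, and its log2 fold change was 0.35 ± 0.10 (SE; adjusted p = 0.285 in limma voom). POU3F2, a neural POU factor that pairs with SOX proteins, had 50 counts in GFP replicate 3, 35 in POU5F1B replicate 3 and at most 3 elsewhere, and was not tested.

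Of 8 genes tested on the TGF-beta route that induces SOX4, 0 passed the threshold, 5 were higher and 3 lower with POU5F1B, and the median log2 fold change was 0.17. SMAD7, the inhibitory SMAD, had 28.0, 24.7 and 20.8 CPM in GFP and 31.9, 28.3 and 30.3 CPM in POU5F1B replicates 1, 2 and 3, with a log2 fold change of 0.31 ± 0.16 (SE; adjusted p = 0.503 in limma voom) and no overlap between the groups. SMAD4, the SMAD shared by TGF-beta and BMP signals, had only 12 to 24 counts per library.

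Of the 5 tested genes described as SOX4 targets in other tissues, 0 passed the threshold, 4 were lower and 1 was higher. Over all tested genes 53.1% were lower. The median log2 fold change was -0.42 for the 5 and -0.02 over all tested genes. EZH2, the histone H3 lysine 27 methyltransferase, was the 1 of these 5 whose groups did not overlap, beside 19.4% of all tested genes. It had 106, 104 and 108 CPM in GFP and 80.4, 77.6 and 78.9 CPM in POU5F1B replicates 1, 2 and 3. Both groups were tight and the log2 difference was nearly the same within each replicate number (-0.40, -0.42 and -0.45), which gave a log2 fold change of -0.42 ± 0.10 (SE; adjusted p = 0.230 in limma voom). In this EZH2 differed from SOX4, which was not equally low in the 3 POU5F1B libraries. The list median of -0.42 is the value of EZH2. Each of the other genes counted as lower had log2 differences of both signs within replicate numbers.

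Of 13 targets that SOX2 and OCT4 share in stem cells, 5 had 0 counts in every library and 2 had enough counts to be tested (0 past the threshold). SALL4, a zinc finger factor, had 4.79, 4.11 and 2.86 CPM in GFP and 5.41, 5.64 and 9.72 CPM in POU5F1B replicates 1, 2 and 3, without overlap (log2 fold change 0.79 ± 0.33 SE, adjusted p = 0.424 in limma voom). LIN28A, an RNA-binding protein, had 268 counts in POU5F1B replicate 3 and at most 8 elsewhere. NANOG had at most 1 count. TDGF1, a co-receptor for NODAL, had 4 to 6 counts in GFP and 7 to 11 in POU5F1B libraries.

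Of the crypt genes linked to SOX9, 5 were tested, 0 passed the threshold, 3 were higher and 2 lower. LGR5, the crypt stem cell receptor, had 239 counts in GFP replicate 3, 79 in POU5F1B replicate 3 and at most 1 in the other 4 libraries. DEFA5, a Paneth cell defensin, had 19 and 35 counts in the same libraries and 0 elsewhere. LYZ, the lysozyme of Paneth cells, had 14, 12 and 16 counts in GFP and 24, 20 and 48 in POU5F1B libraries, without overlap in CPM (log2 fold change 1.06 ± 0.42 SE, adjusted p = 0.391 in limma voom). MUC2, the goblet cell mucin, had at most 3 counts in GFP and 4 to 7 in POU5F1B libraries. SOX9 itself had 182 and 155 CPM in the replicate 3 libraries and 159 to 201 CPM in the others.

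Cartilage targets of SOX9 and endothelial genes linked to group F gave few counts. ACAN, COL9A1 and HAPLN1 had 0 counts throughout, and COL2A1 and MATN3 were the 2 cartilage genes tested (log2 fold changes -0.87 ± 0.68 and 0.68 ± 0.72 SE; adjusted p = 0.650 and 0.739 in limma voom). Among endothelial genes CDH5, KDR and TEK had at most 2 counts and CLDN5 had 0. VWF and NR2F2 were the 2 tested (0.35 ± 0.67 and 0.15 ± 0.28 SE; adjusted p = 0.870 and 0.866 in limma voom). PROX1, a lymphatic and progenitor factor, had 1111 counts in GFP replicate 3, 250 in POU5F1B replicate 3 and at most 9 elsewhere.

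The genes whose pattern over the 6 libraries was most like that of SOX4 were sought among the 3729 tested genes whose log2 CPM had an SD of at least 0.5. MYOM1, IL16, AFF3, CDH11 and FOXA2 had the highest Pearson r with SOX4 (0.998, 0.998, 0.996, 0.995 and 0.995), and MT1E, MAL2 and IRX3 the lowest (-0.991, -0.989 and -0.988). With 6 libraries that fall into 2 groups such values are common, and 197 genes (5.28%) had an r above 0.9. These genes and SOX4 share libraries, depth and the same split of the groups, so r is a description.

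All 5 of the most similar genes were lowest in POU5F1B replicates 1 and 2 and intermediate in POU5F1B replicate 3. FOXA2, a forkhead factor of endoderm, had 5.38, 5.02 and 5.73 CPM in GFP and 1.49, 1.48 and 3.07 CPM in POU5F1B libraries. CDH11, a cadherin of mesenchymal cells, had 46.7, 41.7 and 37.2 CPM in GFP and 1.96, 0.925 and 14.1 CPM in POU5F1B libraries, a wider span than SOX4. AFF3, a nuclear transcription regulator, had 95.5, 94.0 and 64.1 CPM in GFP and 4.47, 3.98 and 29.3 CPM in POU5F1B libraries. Without GFP replicate 3, 1 of the 8 genes stayed among the most similar and most opposite (AFF3), as many genes then had an r near that of the leaders.

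**Figure D4:**
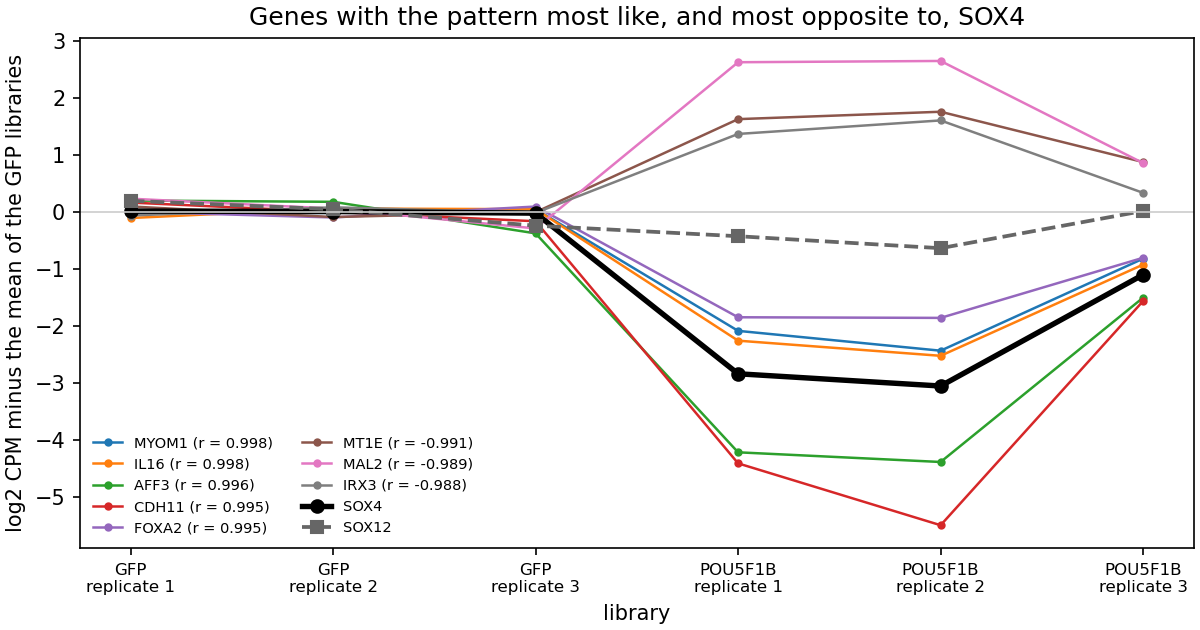
Log2 CPM in each library minus the mean of the GFP libraries (y axis) for SOX4 (thick black), SOX12 (dashed gray), the 5 genes with the highest and the 3 with the lowest Pearson r to SOX4. CDH11 and AFF3 lie below SOX4 in POU5F1B replicates 1 and 2, MAL2, MT1E and IRX3 mirror it, and SOX12 is back at the GFP mean in POU5F1B replicate 3.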

How the data were processed

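Counts per gene were deposited by the authors as whole numbers, 1 table per library, without normalization. The authors mapped reads to hg19 with hisat2 and counted uniquely mapped reads with featureCounts on an annotation of genes and transposable elements; strand setting and annotation release are not given in the sources used here. The tables listed 63677 identifiers, of which 68.5% had a symbol other than the identifier itself. Groups and replicate numbers came from the titles.

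Genes were filtered with filterByExpr (14286 kept) and scaled by TMM in edgeR 4.0.16. Following the study's methods, groups were compared in limma 3.58.1 (voom, R 4.3.3), with p-values adjusted over all tested genes by Benjamini-Hochberg and a threshold of adjusted p under 0.05 with a fold change above 2. Alternatives were edgeR (quasi-likelihood), DESeq2 1.42.0 (Wald), voom with sample quality weights, other scalings and filters, a replicate block, a fold tested inside the test, replicates 1 and 2 only, and each library left out in turn. CPM used TMM-scaled library sizes. Log2 differences within replicate numbers used log2 CPM with a prior count of 2, while fold changes are those of voom. Exon lengths and coordinates (1-based, GRCh37) came from GENCODE v44 lifted to that build, and promoter sequences from RefSeq (GRCh38.p14), placed on GRCh37 by exact match.

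Libraries held 10767947 to 12787637 counts, and 3 counts corresponded to 0.228 to 0.277 CPM. Intervals on counts are exact Poisson and those on shares Wilson, both at 95%, and cover counting error only. No pair of libraries agreed within sampling noise. Scripts were tested on simulated data.

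The members, the 11 gene lists and the alternatives were chosen with earlier results of these data known. Of 94 list entries 1 was not matched. Named are the 10 SOX genes, the other SOX genes and noncoding RNAs at their loci, list genes whose groups did not overlap or, failing those, had the largest fold changes, the genes most like SOX4, and POU5F1B. Genes with high counts in the replicate 3 libraries, the cell type markers and the low or absent list genes were named after their values were seen. For 1 gene of the lists, values are not reported here.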

Additional observations from a re-analysis of the deposited data

How the results depend on the processing

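The SOX4 log2 fold change was negative in every setting tried, from -2.96 (replicates 1 and 2 only) to -1.98, and from -2.93 to -1.98 when single libraries were left out. Every setting refits counts by which SOX4 was chosen, so the shared sign is a description and no separate evidence. The number of genes past the threshold, 0 with all libraries in limma voom, moved to 232 with DESeq2, 1077 with sample quality weights, 4 with no filter and 1194 with replicates 1 and 2 only. It ranged from 0 to 595 when single libraries were left out, with the highest count where GFP replicate 3 was omitted, and 5 genes where POU5F1B replicate 3 was. The causes were not tested.

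A replicate block left 1 gene past the threshold (POU5F1B). Same-numbered libraries deviated together with correlations across genes of 0.242, 0.088 and 0.165, and not every library correlated best with its own number, so the numbers were not taken to pair the samples. SOX4 with the block was -2.20.

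SOX12 had an adjusted p under 0.05 with quality weights (0.0207) and replicates 1 and 2 only (0.0040), each time below 2-fold, and its adjusted p ran up to 1.00. In those 2 limma voom fits, 3973 and 4238 of the 14286 genes tested had an adjusted p under 0.05. SOX9 changed sign without GFP replicate 2 (-0.056), POU5F1B replicate 1 (-0.074) or POU5F1B replicate 2 (-0.0091), and lay between -0.074 and 0.123 over the libraries left out. SOX13 changed sign in replicates 1 and 2 alone (-0.019) and without GFP replicate 3 (-0.027), between -0.027 and 0.214 over the libraries left out. SOX9, SOX12 and SOX13 stayed short of the threshold in each setting run, and SOX18 in each but the filter of at least 10 counts in every sample, which removed it. Of the 8 genes most like or most opposite to SOX4, 1 remained without GFP replicate 3.

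With 8 to 14 counts, SOX18 could not show a difference of the size fitted, and SOX2, SOX5, SOX6, SOX7 and SOX8 were too low to be tested with all libraries.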

Other observations

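Several developmental transcripts that are absent or nearly so in replicates 1 and 2 of both groups were counted in the libraries numbered 3. Besides SOX2, SOX5, SOX6 and SOX14, these were LGR5 (20.7 CPM in GFP replicate 3 and 6.56 CPM in POU5F1B replicate 3), PROX1 (96.5 and 20.8 CPM), POU3F2 (4.34 and 2.91 CPM), CASC15 (3.39 and 0.498 CPM) and DEFA5 (19 and 35 counts). All but DEFA5 were higher in the GFP than in the POU5F1B library of that number. They were chosen after their values were seen, and with 1 library of that number per group the differences have no replicate check.

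LIN28A, at 22.3 CPM in POU5F1B replicate 3, was at most 0.628 CPM in the other 5 libraries, GFP replicate 3 included, so it followed neither the group nor the replicate number.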
